A study of Homo sapiens with 6 samples.

Results

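The clustered replication-dependent histone genes encode the linker histone H1 and the core histones H2A, H2B, H3 and H4, and most of them lie in groups on chromosomes 6 and 1. They were taken as all probe sets annotated to exactly 1 gene whose symbol is H1-1 to H1-5 or begins with H2AC, H2BC, H3C or H4C and a digit, which gave 104 of the 49293 probe sets that are not Affymetrix controls. The 104 probe sets cover 61 of 18132 named genes, with 53 genes on chromosome 6, 7 on chromosome 1 and H4C16 on chromosome 12 in RefSeq GRCh38.p14. By class there were 5 probe sets for H1, 26 for H2A, 41 for H2B, 16 for H3 and 16 for H4. RefSeq lists 83 genes that meet the same rule on symbols, 69 of them protein-coding, and 22 of the 83 had no probe set of their own here. The set was selected on its symbols after histone genes were seen among the largest differences between these same manganese and control arrays. The manganese and control values of the members are therefore given as a description with standard errors. Where members are counted by limma's test over all probe sets, that test uses the contrast that led to their choice, and nothing is supported with these counts.

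Expression was measured on 6 one-colour Affymetrix arrays of SH-SY5Y cells, which derive from a human neuroblastoma and resemble immature sympathetic neurons. The manganese group was 3 cultures given 100 µM manganese, 1/5 of the median lethal concentration per the labels, for 24 h, and the control group was 3 untreated cultures. All were grown in a 1:1 mix of MEM and F12 that held serum. The titles number the 3 arrays of each group as biological replicates and do not say whether they came from separate days or passages, so the errors measure the spread between these arrays only. Values are log2 RMA expression values, and a difference is the manganese mean minus the control mean on that scale, so that 1 is a factor of 2.

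Cells make most of their histone protein while DNA is copied, from genes without introns that are switched on in S phase. The mRNAs of these genes normally end in a stem-loop bound by the stem-loop binding protein SLBP, not in a poly(A) tail, and they are degraded when DNA synthesis stops. Some of the genes, such as H2BC5, H2BC12 and H2BC21, are known to give poly(A)-tailed mRNA as well. The labels give the standard Affymetrix protocol for biotin-labelled cRNA, without naming the primer, and protocols of that family usually start from the poly(A) tail. In bulk RNA a change in the number of S-phase cells and a change in histone mRNA per cell cannot be told apart.

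The bases just before the transcription start are shown for 5 genes, because they carry the sequence features that set the classes apart and include the members with the largest differences in H2B, H2A and H3. Each window is the 250 bases before the RefSeq start, build GRCh38.p14, written 5′ to 3′ on the strand of the gene. Capitals mark 3 motifs searched on both strands, which are the octamer ATTTGCAT, a site for the POU factor OCT1 known from H2B promoters, the CCAAT box CCAAT, a site for NF-Y, and the TATA box TATAAA. No 2 of the marked motifs overlap in these windows.
H2BC9, chr6:26251364-26251613, plus strand: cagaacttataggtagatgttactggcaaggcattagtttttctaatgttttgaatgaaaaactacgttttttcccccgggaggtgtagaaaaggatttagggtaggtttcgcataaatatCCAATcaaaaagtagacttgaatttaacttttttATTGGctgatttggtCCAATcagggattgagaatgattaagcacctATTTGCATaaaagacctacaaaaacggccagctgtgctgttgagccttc
H2AC20, chr1:149886668-149886917, plus strand: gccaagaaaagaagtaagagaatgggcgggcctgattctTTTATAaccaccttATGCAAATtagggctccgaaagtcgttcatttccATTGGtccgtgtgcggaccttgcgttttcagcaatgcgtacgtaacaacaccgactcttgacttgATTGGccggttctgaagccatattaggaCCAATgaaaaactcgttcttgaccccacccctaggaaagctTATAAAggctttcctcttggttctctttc
H2BC13, chr6:27807930-27808179, minus strand: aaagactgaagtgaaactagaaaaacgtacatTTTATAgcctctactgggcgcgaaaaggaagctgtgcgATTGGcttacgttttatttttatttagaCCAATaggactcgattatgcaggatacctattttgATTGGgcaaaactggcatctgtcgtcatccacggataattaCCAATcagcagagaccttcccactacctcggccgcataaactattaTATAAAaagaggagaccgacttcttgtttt
H3C3, chr6:26045134-26045383, plus strand: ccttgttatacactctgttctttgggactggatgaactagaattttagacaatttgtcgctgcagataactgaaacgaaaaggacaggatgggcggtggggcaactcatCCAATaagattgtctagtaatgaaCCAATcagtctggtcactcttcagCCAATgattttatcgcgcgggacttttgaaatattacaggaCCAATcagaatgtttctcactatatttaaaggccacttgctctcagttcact
H4C12, chr6:27831561-27831810, minus strand: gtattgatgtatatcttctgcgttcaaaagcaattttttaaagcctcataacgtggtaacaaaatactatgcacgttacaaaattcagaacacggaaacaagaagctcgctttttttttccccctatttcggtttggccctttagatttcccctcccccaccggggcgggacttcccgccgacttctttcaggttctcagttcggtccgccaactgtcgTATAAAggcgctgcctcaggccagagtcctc

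A window was found for 55 of the 61 genes. The octamer stood in 11 of 14 H2A genes and 14 of 18 H2B genes, in 1 of 8 H3 genes and in 0 of 5 H1 and 0 of 10 H4 genes, against 1.63% of all 35116 windows in the table. The CCAAT box stood in all H1, H2A, H2B and H3 genes with a window and in 3 of 10 H4 genes, or 87.3% of member genes, against 32.0% of all windows. The TATA box stood in 67.3% of member genes, against 10.7% of all windows. Within H2B, the 14 genes with an octamer had a median difference of 0.16 at their brightest probe set and the 4 without one had 0.47. Within H2A the 11 with an octamer had a median of 0.38 and the 3 without had 0.35. H2BC9, with the largest differences of all members, holds the octamer, while H2BC13 and its neighbour H2AC13 do not. In 11 head-to-head pairs of H2A and H2B genes the windows share 193 to 247 of their 250 bases. Such shared bases are counted under both classes. The H2A and H2B counts, and their medians with and without an octamer, are therefore not independent of each other. A match of letters is a description of the window and says nothing about binding.

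Across all 104 probe sets the median difference was 0.36, against 0.02 over all 49293 probe sets, and 98 of the 104 differences were above 0, against 54.9% of all probe sets. The members ranged from -0.15 for H2BC18 to 2.10 for H2BC9. In 62 of the 104 the 3 manganese arrays all lay above the 3 control arrays, which held for 8.90% of all probe sets, and in 1 they all lay below, which held for 7.63%. A difference of 1 or more was seen at 16 probe sets of 11 genes, against 0.146% of all probe sets. In limma's test over all probe sets, at a Benjamini-Hochberg adjusted p of 0.05, 8 members were called higher in manganese and 0 lower, against 0.0568% and 0.00203% of all probe sets, or 0.0588% in either direction. The 8 were the 3 probe sets of H2BC9, the 2 of H2AC20 and 1 each of H2AC16, H2BC13 and H3C10. Without manganese 1 or without manganese 2 the count was 0, without manganese 3 or control 3 it was 4, and without control 2 it was 14. At an unadjusted p under 0.05 there were 61 member probe sets, against 10.9% of all probe sets.

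**Figure D1:**
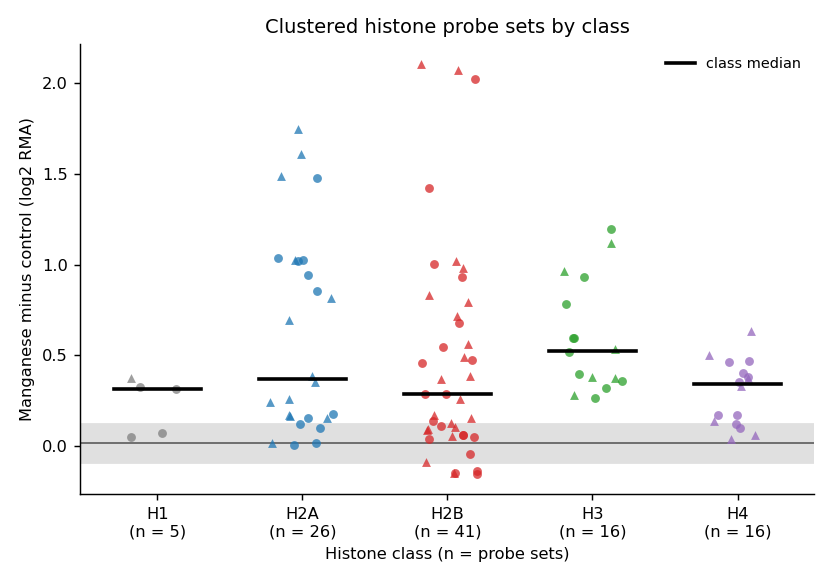
Manganese minus control on the log2 RMA scale for each of the 104 histone probe sets, by histone class. Each point is a probe set (triangles for those marked as shared, circles for the others), black lines are class medians, the grey line is the median of all 49293 probe sets at 0.02 and the grey band their middle 50%, and the H3 median of 0.53 is the highest of the 5 medians while the H2B points spread from -0.15 to 2.10.

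The class medians were 0.31 for H1, 0.37 for H2A, 0.29 for H2B, 0.53 for H3 and 0.34 for H4. The middle 50% of the differences ran from 0.16 to 1.02 in H2A and from 0.06 to 0.72 in H2B, but from 0.37 to 0.82 in H3 and from 0.13 to 0.42 in H4. The groups did not overlap, with manganese higher, at 15 of 16 H3 probe sets, 16 of 26 for H2A, 21 of 41 for H2B, 8 of 16 for H4 and 2 of 5 for H1. All 16 probe sets with a difference of 1 or more belonged to H2A, H2B or H3. Many probe sets of a class read near-identical genes, so they are not independent of each other and the classes were not tested against each other.

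H2B pairs with H2A to form the dimers that flank the core of the nucleosome, and the member with the largest difference was the H2B gene H2BC9. At its brightest probe set, 11759110_a_at, H2BC9 measured 10.76, 10.67 and 10.62 in manganese cultures, against 8.34, 8.92 and 8.73 in control cultures. Every manganese array lay far above every control array. The mean was 10.68 ± 0.07 in manganese and 8.66 ± 0.30 in control (SD, n = 3 each), a difference of 2.02 ± 0.15 (SE) or 4.06-fold. Its other 2 probe sets, both of the kind that Affymetrix marks as able to bind related transcripts (_x_at), gave 2.07 and 2.10. They measured 10.74, 10.69 and 10.61 at 11759111_x_at in manganese cultures, against 8.30, 8.86 and 8.67 in control cultures. At 11715132_x_at they measured 10.29, 10.33 and 10.16 in manganese cultures, against 7.92, 8.48 and 8.08 in control cultures. The lowest manganese array lay 1.68 to 1.75 above the highest control array over the 3 probe sets. Against control 2 alone the 3 probe sets gave 1.77 to 1.82.

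H2BC13 measured 5.20, 5.11 and 4.96 in manganese cultures, against 3.52, 3.68 and 3.80 in control cultures. Its groups did not overlap, and the difference was 1.42 ± 0.11 (SE), with 1.41 against control 2 alone. All 3 control values lay below the 40th percentile of their arrays, which was 4.37 to 4.40, so the control level was close to background and limits the fold. H2BC5 was higher at all of its 3 probe sets, by 1.02, 0.68 and 0.46. H2BC6 was also higher at its 3 probe sets, by 0.79 to 0.93, and H2BC10 at its 3, by 0.72 to 1.01. None of these 9 probe sets had overlapping groups, and the 3 of H2BC10 were below the 40th percentile on all control arrays.

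Other H2B genes showed little difference. H2BC12, the brightest H2B gene after H2BC9, measured 8.02, 7.94 and 7.77 in manganese cultures, against 7.76, 8.02 and 7.83 in control cultures. The groups overlapped and the difference was 0.04 ± 0.11 (SE). H2BC21 was at -0.14 ± 0.12 (SE) at its brightest probe set, with 5.28, 5.52 and 5.29 in manganese cultures, against 5.67, 5.32 and 5.53 in control cultures. Its 2 other probe sets hold identical values on all 6 arrays and so count as 1 measurement, at -0.15. The lowest difference of all members, -0.15 ± 0.09 (SE), was that of H2BC18 at probe set 11750018_at, which read 3.45, 3.45 and 3.59 in manganese cultures, against 3.64, 3.62 and 3.69 in control cultures. That was the only member probe set with every manganese array below every control array, at a level near background, and the 3 other H2BC18 probe sets gave -0.04 to 0.15. The testis H2B gene H2BC1 stood at 0.14 ± 0.17 (SE) and its neighbour, the testis H2A gene H2AC1, at 0.01 ± 0.13 (SE), both near background on all arrays. H2AC1 read 4.14, 4.05 and 3.71 in manganese cultures, against 3.87, 3.95 and 4.07 in control cultures, with overlap.

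**Figure D2:**
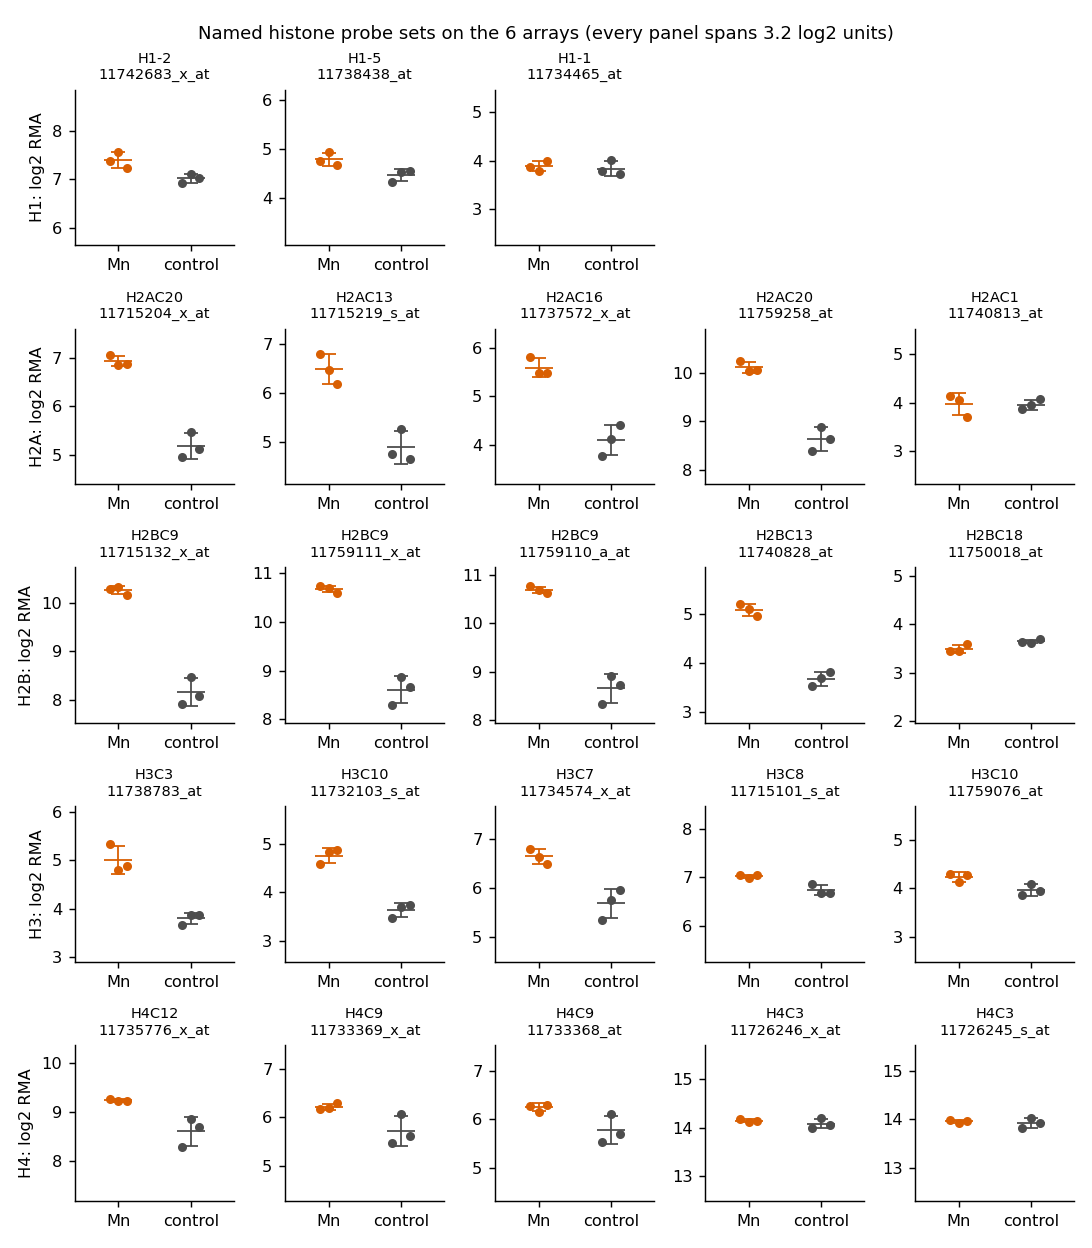
Log2 RMA values of the named probe sets on the 3 manganese arrays (orange, left) and the 3 control arrays (grey, right), with the mean and SD of each group (n = 3), 1 row of panels per histone class. Every panel spans the same range, and the 3 H2BC9 panels show the widest gap, with manganese arrays at 10.16 or above and control arrays at 8.92 or below.

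Among H2A genes the largest differences were those of H2AC20, H2AC13 and H2AC16. H2AC20 measured 10.23, 10.03 and 10.07 at its brightest probe set in manganese cultures, against 8.38, 8.88 and 8.63 in control cultures. The groups lay about 1.15 apart, and the difference was 1.48 ± 0.14 (SE), with 1.75 ± 0.14 at its other probe set, which read 7.05, 6.86 and 6.87 in manganese cultures, against 4.95, 5.47 and 5.11 in control cultures. Both probe sets of H2AC20 had manganese arrays above control arrays without overlap. H2AC13 measured 6.81, 6.47 and 6.19 in manganese cultures, against 4.74, 5.26 and 4.64 in control cultures, a difference of 1.61 ± 0.20 (SE). Its groups did not overlap. The other H2AC13 probe sets gave 0.94 and 1.02, both with control values below the 40th percentile on all 3 control arrays. The probe set 11715219_s_at behind the value of 1.61 is of the kind shared between genes (_s_at), so the copy that the signal comes from is uncertain.

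H2AC16 measured 5.81, 5.48 and 5.49 at probe set 11737572_x_at in manganese cultures, against 3.78, 4.13 and 4.41 in control cultures. The groups lay 1.07 apart, with a difference of 1.49 ± 0.17 (SE), and its other probe set gave 1.02. At 11737572_x_at 2 of the 3 control values lay below the 40th percentile of their arrays. H2AC4 was higher by 0.85 ± 0.11 (SE) and H2AC14 by 0.70 ± 0.12 (SE), each at its 1 probe set and without overlap. Both were near background, H2AC4 below the 40th percentile on all 3 control arrays and H2AC14 on all 6 arrays. H2AC8 is the example of a well-measured H2A gene with overlapping groups. Its brightest probe set read 7.24, 7.17 and 7.25 in manganese cultures and 7.13, 7.18 and 7.31 in control cultures, a difference of 0.01 ± 0.09 (SE). The other H2AC8 probe set, 11731694_s_at, was at 0.24 ± 0.13 (SE), also with overlap. Of the 15 H2A genes, H2AC11, H2AC13 and H2AC21 had probe sets whose differences lay more than 0.5 apart, from 0.10 to 1.02, from 0.94 to 1.61 and from 0.38 to 1.03. All probe sets of H2AC21 were below the 40th percentile on all 6 arrays.

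H3 and H4 form the tetramer at the centre of the nucleosome. All 16 H3 probe sets, of 10 genes, were above 0, from 0.27 to 1.20. H3C3 measured 5.34, 4.80 and 4.88 in manganese cultures, against 3.68, 3.87 and 3.88 in control cultures, a difference of 1.20 ± 0.15 (SE). H3C10 measured 4.57, 4.82 and 4.87 at probe set 11732103_s_at in manganese cultures, against 3.47, 3.69 and 3.75 in control cultures, a difference of 1.12 ± 0.12 (SE), and its other probe set was at 0.27 ± 0.10. That probe set read 4.30, 4.12 and 4.28 in manganese cultures, against 3.87, 4.10 and 3.94 in control cultures. Both genes had non-overlapping groups and control values below the 40th percentile on all 3 control arrays. H3C7 measured 6.81, 6.65 and 6.49 at probe set 11734574_x_at in manganese cultures, against 5.35, 5.75 and 5.95 in control cultures, a difference of 0.97 ± 0.16 (SE). Its groups did not overlap, and its other probe set was at 0.59 ± 0.12 (SE). H3C12 was higher by 0.93 ± 0.18 (SE) and H3C4 by 0.78 ± 0.13 (SE). The brightest H3 probe set, 11715101_s_at of H3C8, measured 7.04, 6.99 and 7.04 in manganese cultures, against 6.86, 6.68 and 6.67 in control cultures, a difference of 0.28 ± 0.10 (SE) but again without overlap. The 1 H3 probe set with overlapping groups was 11715121_s_at of H3C1.

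H4 differences stayed between 0.04 and 0.64 over 16 probe sets of 12 genes. H4C12 measured 9.27, 9.22 and 9.22 at probe set 11735776_x_at in manganese cultures, against 8.27, 8.85 and 8.69 in control cultures. Its groups did not overlap and the difference was 0.64 ± 0.15 (SE), but its other probe set had overlapping groups and was at 0.17 ± 0.16 (SE). H4C9 was higher at both of its probe sets, by 0.50 ± 0.15 and 0.47 ± 0.15 (SE), and these values were 0.15 and 0.14 against control 2 alone. H4C9 read 6.28, 6.16 and 6.30 at 11733368_at in manganese cultures, against 5.54, 6.11 and 5.69 in control cultures, so control 2 lay within 0.05 of the lowest manganese array. At 11733369_x_at it read 6.18, 6.18 and 6.29 in manganese cultures, against 5.46, 6.06 and 5.61 in control cultures.

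H4C3 was the brightest of all members, at 14.17, 14.12 and 14.14 in manganese cultures, against 14.00, 14.19 and 14.07 in control cultures. The groups overlapped, and the difference was 0.06 ± 0.09 (SE), with 0.04 ± 0.10 at its other probe set, which read 13.99, 13.93 and 13.96 in manganese cultures, against 13.82, 14.03 and 13.93 in control cultures. The highest value on any array was 14.38, so H4C3 sat near the top of the scale. Whether its probes were saturated was not tested, since raw intensities were not used here.

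The linker histone H1, which binds DNA where it enters and leaves the nucleosome, was read by 1 probe set for each of 5 genes. H1-2, the brightest, measured 7.38, 7.57 and 7.24 in manganese cultures, against 6.92, 7.12 and 7.02 in control cultures, a difference of 0.38 ± 0.12 (SE). H1-5 measured 4.75, 4.93 and 4.68 in manganese cultures, against 4.31, 4.52 and 4.55 in control cultures, a difference of 0.32 ± 0.11 (SE). These were the 2 H1 genes without overlap. H1-3 was at 0.31 ± 0.21 (SE) with a wide control spread, and H1-4 was at 0.07 ± 0.10 (SE). H1-1 measured 3.87, 3.79 and 3.999 in manganese cultures, against 3.79, 4.01 and 3.72 in control cultures, a difference of 0.05 ± 0.11 (SE) near background. The median of the 5 was -0.05 against control 2 alone and 0.07 without control 1, so the H1 value was small without control 1 and below 0 when only control 2 was used.

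**Figure D3:**
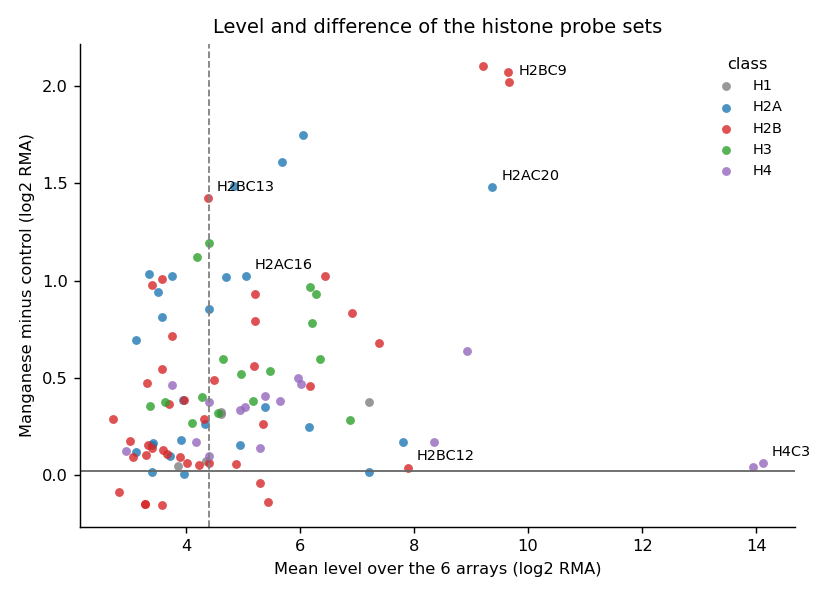
Mean level over the 6 arrays (log2 RMA, horizontal) and manganese minus control (log2 RMA, vertical) of the 104 histone probe sets, coloured by class, with the highest 40th percentile of the arrays (4.40) as a dashed line and the median of all probe sets (0.02) as a grey line. H2BC9 and H2AC20 are bright and far above the line, while H4C3 and H2BC12 are bright and close to it.

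The members were dim as a group. The median level of the members was 4.41, and 50 of the 104 lay below the 40th percentile on all 3 control arrays, 39 of them on all 6 arrays. The 39 had a median difference of 0.16, and at the 8 members with a mean level of 8 or more it was 1.06, where all probe sets of that level had a median of 0.02. The 8 bright probe sets were those of H2BC9, H2AC20, H4C12 and H4C3, and their differences ran from 0.04 to 2.10. Probe sets that Affymetrix marks as shared (_s_at or _x_at) made up 49 of the 104, with a median of 0.38, and the other 55 had a median of 0.32. Of 29 genes with more than 1 probe set, all but 5 had differences within 0.5 of each other, the 5 being H2AC11, H2AC13, H2AC21, H2BC5 and H3C10.

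The 6 genes known to give poly(A)-tailed mRNA as well, H1-2, H2AC6, H2BC4, H2BC5, H2BC12 and H2BC21, had 12 probe sets with a median difference of 0.11. In 4 of the 12, or 33.3%, the groups did not overlap and manganese was higher, against 8.90% of all probe sets. Both H2BC21 probe sets with identical values enter here, which lowers this median and this share. The other 92 probe sets had a median of 0.38, and 58 of them, or 63.0%, had such groups. The 4 were those of H2BC5 and H1-2. Of the 12, 5 lay below the 40th percentile on all 6 arrays, against 34 of the 92. The 5 were those of H2BC4, the dimmer of H2BC12 and those of H2BC21 with identical values. H2AC6 was at 0.16 ± 0.15 (SE), H2BC4 at 0.17 and -0.09, H2BC12 at 0.04 and 0.06, and H2BC21 at -0.14 and -0.15. The list rests on background knowledge and was drawn up with results of these data known, so the split is a description.

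H2A and H2B genes often lie head to head and share the DNA between their starts. Of the members, 11 such pairs had starts 194 to 248 bases apart on opposite strands. In 7 pairs the brightest probe sets of the partners differed by less than 0.5, in 3 by 0.5 to 1 and in 1 by more than 1. H2BC13 and H2AC13 were both high, at 1.42 and 1.61, and H2AC1 and H2BC1 both near 0, at 0.01 and 0.14. The pair with the widest gap was H2AC20, at 1.48, and H2BC21, at -0.14, whose starts lie 236 bases apart, so that 235 of the 250 bases in the printed H2AC20 window also lie in the window of H2BC21. H2AC11 at 1.02 and H2BC11 at 0.09 stood apart as well, but only at their brightest probe sets. Over all their probe sets H2AC11 ran from 0.10 to 1.02 and H2BC11 from 0.09 to 0.545, with H2BC11 near background throughout. On chromosome 6 the genes with large differences were spread over the cluster. H2BC9 lay between H3C7 at 0.59 and H3C8 at 0.28, and the run of H2BC13, H2AC13 and H3C10 had 1.42, 1.61 and 1.12.

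**Figure D4:**
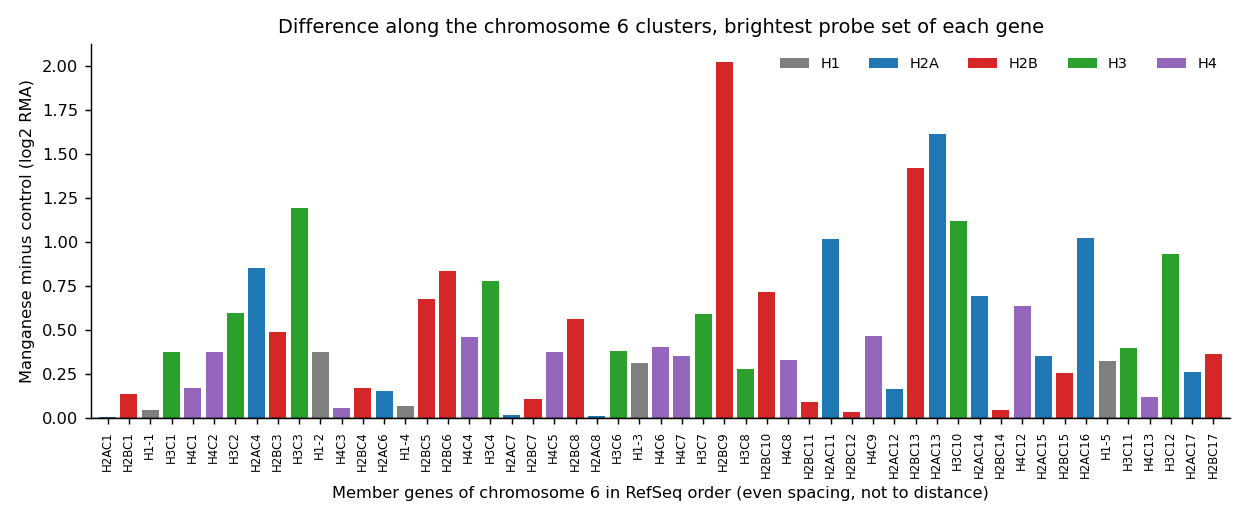
Manganese minus control (log2 RMA) at the brightest probe set of the 53 member genes on chromosome 6, in their RefSeq order with even spacing, coloured by class. The tallest bar is H2BC9 at 2.02, between H3C7 at 0.59 and H3C8 at 0.28, and H2BC13, H2AC13 and H3C10 stand side by side at 1.42, 1.61 and 1.12.

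The control arrays were not alike, and the histone values differed between them. Control 1 was the lowest of the 3 controls at 77 of the 104 members, against 45.4% of all probe sets. Control 2 was the highest at 57 of the 104, against 34.2%. The median of each member's value minus its control mean was 0.44, 0.37 and 0.29 on the manganese arrays, and -0.14, 0.11 and 0.04 on controls 1, 2 and 3. In each of the 5 classes every manganese median lay above every control median, most narrowly in H1, where manganese 1 was at 0.14 and control 2 at 0.12. Spike-in transcripts with poly(A) tails, read by 12 probe sets, averaged 7.91, 7.84 and 7.80 on the manganese arrays, and 6.14, 7.79 and 5.81 on controls 1, 2 and 3. Against control 2, whose spike-in values were near those of the manganese arrays, the median member difference was 0.23, and 82 of the 104 were above 0, against 51.6% of all probe sets. By class these medians were -0.05 for H1, 0.26 for H2A, 0.29 for H2B, 0.37 for H3 and 0.10 for H4.

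Control probe sets also read ribosomal RNA, another RNA without a poly(A) tail. The 28S probe sets averaged 9.57, 9.78 and 9.77 in manganese cultures, against 9.30, 9.38 and 9.23 in control cultures, a difference of 0.40. The 18S probe sets averaged 11.64, 12.06 and 12.15 in manganese cultures, against 11.90, 11.58 and 11.05 in control cultures, a difference of 0.44 with overlapping groups. The hybridization spike-ins averaged 10.85, 10.77 and 10.69 on the manganese arrays, against 10.22, 10.62 and 10.06 on the control arrays, without overlap. The background probe sets differed by 0.06. The 3′ minus 5′ difference of GAPDH, a measure of RNA integrity, was 0.69 to 0.73 in manganese cultures and 0.67 to 0.72 in control cultures. That of ACTB was 3.65 to 3.77 in manganese cultures and 3.51 to 3.69 in control cultures, a difference of 0.11. The part of spike-in level, RNA integrity and ribosomal RNA in the histone differences was not tested.

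**Figure D5:**
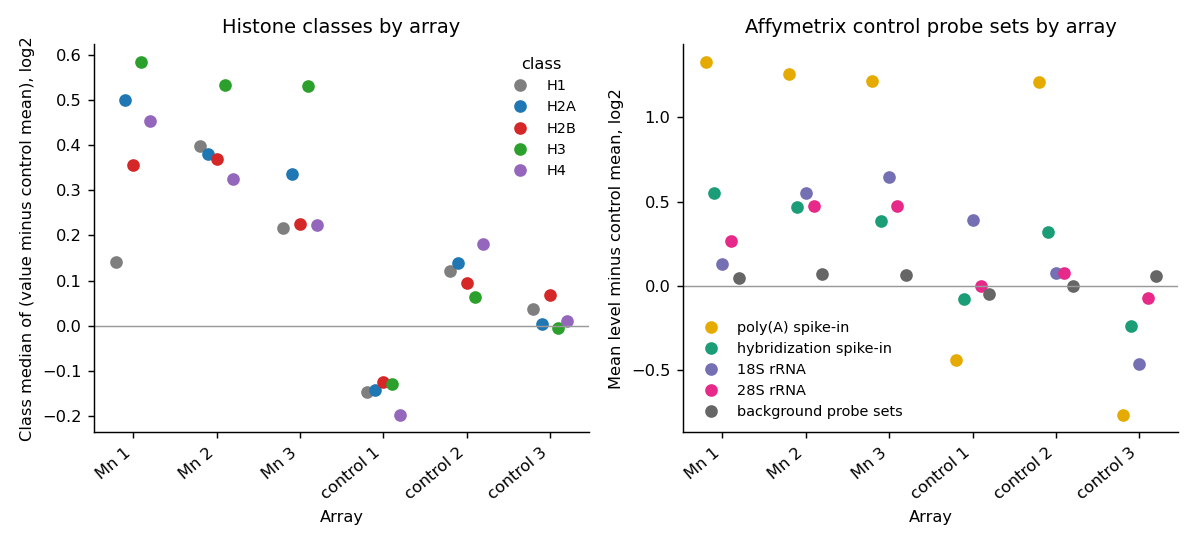
Left, the median of value minus control mean (log2) over the probe sets of each histone class on each array. Right, the mean level of Affymetrix control probe sets minus its control mean (log2) on each array. Histone medians lie at 0.14 or above on the manganese arrays and at 0.18 or below on the controls, and the spike-ins of control 2 are near those of the manganese arrays.

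Histone genes outside the clusters, whose mRNAs generally but not always carry poly(A) tails, encode variants that can enter chromatin outside S phase. Over 28 probe sets of 11 variant genes the median difference was 0.01. Non-overlapping groups were seen in 0 of the 28, against 8.90% of all probe sets with manganese higher and 7.63% lower. In limma's test 0 were called, against 0.0588% of all probe sets, a share at which 0 of 28 says little. An unadjusted p under 0.05 was seen in 0, against 10.9% of all probe sets. H3-3B, which encodes the replacement histone H3.3, was at 0.21 ± 0.12 (SE) at its brightest probe set and 0.28 against control 2 alone. Over all its probe sets H3-3B ran from 0.11 to 0.26, and from 0.17 to 0.64 against control 2 alone. H2AZ1 had 4 probe sets between -0.33 and -0.21, and against control 2 alone they were between 0.01 and 0.15. H2AZ2 was at 0.19 ± 0.15 (SE) at a probe set near background, and its brighter probe sets ran from -0.19 to 0.07. The centromere histone CENPA was at -0.23 ± 0.20 (SE), or -0.41 against control 2 alone. The difference between members and variants was not tested.

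Genes of histone mRNA transcription and 3′ end processing were measured at 56 probe sets of 20 genes. Limma called 0 of them in either direction, against 0.0588% of all probe sets, so this 0 says little. At an unadjusted p under 0.05, 3 were higher and 16 lower, against 5.05% and 5.86% of all probe sets. Their median difference was -0.15. In 3 probe sets every manganese array lay above every control array, or 5.36%, against 8.90% of all probe sets. In 18 probe sets every manganese array lay below every control array, or 32.1%, against 7.63% of all probe sets. All 18 were of SRRT, NCBP2, UPF1, NCBP1, ZNF473 and SLBP, and most were repeat probe sets of SRRT, NCBP2 and UPF1. The share therefore rests on a few of the 20 genes. NCBP2, a subunit of the cap-binding complex, averaged 5.28 ± 0.07 in manganese cultures and 5.92 ± 0.14 in control cultures (SD, n = 3 each). UPF1, a helicase that takes part in histone mRNA decay, was at -0.56 ± 0.11 (SE) and SRRT, a partner of the cap-binding complex, at -0.65 ± 0.13. LSM11, a protein of the U7 particle that helps to cut histone pre-mRNA, was at 0.51 ± 0.13 (SE), or 0.28 against control 2 alone. SLBP, which also stands in the G1/S list, had probe sets at -0.34 and -0.25, and NPAT, the activator of histone genes in S phase, had 3 between -0.31 and 0.17.

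Genes of the G1/S transition and DNA replication had 91 probe sets of 38 genes with a median difference of -0.01. Calls by limma numbered 0, against 0.0588% of all probe sets, so this 0 says little as well. At an unadjusted p under 0.05, 13 were higher and 6 lower, against 5.05% and 5.86% of all probe sets. The groups did not overlap in 14 with manganese higher, or 15.4%, against 8.90%, and in 9 with manganese lower, or 9.89%, against 7.63%. MCM4, a subunit of the replicative helicase, was at 0.51 ± 0.11 (SE), and CDT1, a licensing factor, averaged 8.19 ± 0.05 in manganese cultures and 7.52 ± 0.34 in control cultures (SD, n = 3 each). ORC6, of the origin recognition complex, was at -0.69 ± 0.18 (SE) and the uracil glycosylase gene UNG at -0.49 ± 0.13. Against control 2 alone CDT1 was at 0.35 and the list median at 0.09. All 10 measured noradrenergic marker genes had a probe set above the 40th percentile on all 6 arrays. Their 27 probe sets had a median of -0.09, with 0 non-overlapping and higher, against 8.90% of all probe sets. In 7, or 25.9%, against 7.63%, the groups did not overlap and manganese was lower. The 7 were of STMN2, ISL1, GATA3 and GATA2, most of them of STMN2. The 27 differences ran from -0.995 for STMN2, which was -0.43 against control 2 alone, to 0.22 for TH. The 48 probe sets of 12 mesenchymal markers had a median of 0.03. Of these, 7 were non-overlapping and higher, or 14.6%, against 8.90%, and 2 lower, or 4.17%, against 7.63%. The 48 differences ran from -0.49 for FN1 to 0.77 for VIM, and 9 of the 12 genes were above the 40th percentile on all 6 arrays. The part of a shift in cell state in the histone differences was not tested.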

How the data were processed

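The deposited log2 values cover 49395 probe sets on 6 arrays. Per the submitters' processing notes, the authors used RMA and the Affymetrix Expression Console, whose versions the sources used here do not give. RMA equalizes the distribution of probe intensities between arrays, so a shift shared by most genes is removed. The 102 Affymetrix control probe sets served only as checks. The platform annotation named the genes, with 1 symbol for 44994 probe sets, several for 1832 and none here for 2569. The human RefSeq gene table (GRCh38.p14) matched 44967 of them by Entrez number and changed 0 symbols.

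All 49293 other probe sets entered 1 linear model with moderated variances (limma 3.58.1, R 4.3.3), with group as the only term, with no filter on level, because a filter would keep some members only through the group where they are high. Tests are two-sided, with Benjamini-Hochberg adjustment over all 49293. Standard errors come from this fit. The members, the gene lists, the tests and the alternatives were chosen with earlier results of these data known. Per-array values are printed, in each class, for the 3 largest differences without overlap, the brightest and the lowest member, and for H2BC9, H2AC13, H2AC20, H2BC13, H3C3 and H3C10. H2BC12, H2BC21, H2AC8 and other members beyond that rule were picked as examples after their values were seen. The 4 genes of smallest p were named per related list, and SLBP and NPAT for their role. The fit was tested on simulated arrays. Arrays give no counting depth, so their number limits the precision.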

Additional observations from a re-analysis of the deposited data

Results flagged for a closer look

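A further 9 probe sets are annotated to several genes of which at least 1 is a clustered histone gene, so they are not members. In 7 of them every manganese array lay above every control array, against 8.90% of all probe sets, and they are listed because they lie outside the probe sets described above. They come from the same contrast that led to the choice of the members. At an adjusted p of 0.05 limma called 0 of the 9, against 0.0588% of all probe sets. The probe set of H4C12 and H4C11 measured 11.79, 11.67 and 11.77 in manganese cultures, against 9.84, 10.95 and 10.38 in control cultures, a difference of 1.35, and of 0.79 against control 2 alone. That is above the largest H4 difference among the members. The probe set of H3C13, H3C14, H3C15 and H3-7 differed by 0.94. The brighter probe set of H4C14 and H4C15 differed by 0.55 and the dimmer by 0.24. The probe sets of H2AC18 and H2AC19 differed by 0.50 and 0.49, and the probe set of H2AC7 and H3C4 by 0.24. The other 2, both of H3C14 and H3C15 and both near background, had overlapping groups at -0.07 and -0.09.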

How the results depend on the processing

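With 3 arrays a group and many members near background, the number of calls moved with single arrays. The count of members called by limma was 8. It was 4 without shared probe sets, 3 with the replicate block, 13 with a variance trend, 3 against control 2 alone and 0 to 14 with 1 array left out. The count over all probe sets was 29, and it was 19 with 1 probe set per gene, 10 with the replicate block, 7 against control 2 alone and 0 to 86 with 1 array left out. In the fit against control 2 the spread of a lone control is taken to be that of the other group. Members with non-overlapping groups numbered 62, but 31 with 1 probe set per gene and 32 without shared probe sets, where fewer members enter. Their number was 63 to 75 with 1 array left out. Leaving out an array can only keep or raise this count, so that range says nothing about its stability. The median member difference stayed between 0.23 and 0.46 over all alternatives. The H2A median was 0.85 with the 40th percentile filter, 0.60 with 1 probe set per gene and 0.52 without shared probe sets, and the H2B median 0.56 and 0.39 with the first and the second of these. The H1 median was 0.19 without shared probe sets, against 0.31 with all. The filter drops 44 dim members. Against control 2 alone the medians were -0.0505 for H1, 0.37 for H3 and 0.10 for H4. With 1 array left out the medians ran from 0.0683 to 0.37 for H1, 0.29 to 0.44 for H2A, 0.22 to 0.32 for H2B, 0.43 to 0.57 for H3 and 0.21 to 0.44 for H4. Centring each array on its median moved no count or median named here past the spread between arrays. Same-numbered arrays did not deviate together, with correlations of -0.23, 0.10 and -0.23. With 3 arrays a group this showed no pairing by number, but it cannot tell whether such arrays shared a day or passage. Of 363 recomputed differences of the 34 named probe sets, 343 moved by less than 1 SD and 0 called ones changed sign. Some small differences that were not called did change sign against control 2 alone. H1-1 went from 0.05 to -0.12, the brightest H4C3 probe set from 0.06 to -0.05 and the brightest of H2BC12 from 0.04 to -0.11. The brightest H2BC21 probe set went from -0.14 to 0.05. The related lists had 0 calls in every alternative.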
